A study of Mus musculus with 4 samples.

Results

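The cells described here are the monocytes among mouse brain cells pulled out magnetically through CD11b, an integrin on the surface of myeloid cells. The members were chosen by measured transcript values, in a gate. They had 300 or more genes, at most 10% mitochondrial UMIs (unique molecular identifiers, which count RNA molecules), and at least 3 of the 7 transcripts Ccr2, Ly6c2, Plac8, Chil3, S100a4, Ace and Treml4. At most 1 of P2ry12, Tmem119, Mrc1 and Pf4, which mark microglia, border macrophages and platelets, was detected in them. They also held under 20 UMIs of the neutrophil transcripts S100a8 and S100a9 together and no UMI of the progenitor transcripts Elane and Prtn3. The gate took 61 of 23339 kept barcodes, out of 24520 barcodes deposited.

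Single-cell RNA was read in 4 mouse brain libraries, 1 for each genotype: wild-type, TERF2DN (labelled TERF2DN-Tg), APP/PS1, and APP/PS1 combined with TERF2DN, written APP/PS1;TERF2DN. APP/PS1 mice, APPswe/PS1dE9 by the series title, carry mutant Alzheimer's disease transgenes and deposit amyloid in the brain, and TERF2DN, a mutant of the telomere protein TERF2 that blocks its function, goes with endothelial senescence by the same title. The labels call the cells microglia and name microglia and endothelial cells as the cells isolated, and the sources used here do not give the promoter behind each transgene, the age or the number of mice. With 1 library per genotype no test between genotypes was possible, no p-value is given, and every 95% interval below covers counting error only.

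Monocytes are bone marrow-derived blood cells that patrol vessels and enter tissue. In the mouse they come in a classical form, with high Ly6C and the chemokine receptor CCR2, which is recruited into inflamed tissue, and a nonclassical form with low Ly6C, which crawls along the vessel wall and depends on the transcription factor Nr4a1. Microglia, by contrast, are resident brain macrophages, and in amyloid models they take on a state with high Apoe, Trem2, Cst7 and Spp1 that is called disease-associated.

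The gate transcripts chose the cells, so their levels are a description. S100a4, a calcium-binding protein, was detected in 55 of the 61 barcodes and Plac8 in 51. Ace, the angiotensin-converting enzyme (chr11:105967945-105989964, plus strand), was detected in 35 and Treml4, a receptor of the TREM family (chr17:48264295-48275360, plus strand), in 33. Ccr2 (chr9:124101950-124113557, plus strand) was detected in 26, Chil3, a chitinase-like protein (chr3:106147554-106167564, minus strand), in 26, and Ly6c2 in 20. Ace gave 58, 32, 10 and 12 UMIs in monocytes of wild-type, of TERF2DN, of APP/PS1 and of APP/PS1;TERF2DN, and Chil3 gave 396, 412, 43 and 8. The first thus came from all 4 libraries, while nearly all of the second came from the wild-type and TERF2DN libraries. Ly6c2 has a near-identical neighbour, Ly6c1, which gave 1 UMI in all monocytes, and the split of reads between them is uncertain. Close copies also exist for Chil3, Ear2, Bcl2a1b and the H2 genes.

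At the edge of the gate, 18 members carried exactly 3 of the 7 transcripts, 24 carried 4, 18 carried 5 and 1 carried 6. A further 52 barcodes passed everything else with exactly 2. Of those 52, 33 held 3 or more of 15 dendritic cell markers and 7 held Ace or Treml4, and of the 18 members with exactly 3, 8 held 3 or more dendritic markers and 8 held Ace or Treml4. Another 21 barcodes had 3 or more gate transcripts but at least 2 of P2ry12, Tmem119, Mrc1 and Pf4. Members with none of these 4 transcripts numbered 46, and members with 1 numbered 15.

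The label was checked against lists of marker genes of other cells, and 12 of the 61 barcodes held 3 or more T cell or dendritic cell markers. All 61 held 3 or more of 25 classical monocyte genes and 58 held 3 or more of 25 nonclassical genes, but the 2 barcodes with T cell markers pass both counts too, so these do not check the label. Among markers of other cells, 11 barcodes held 3 or more dendritic cell markers and 2 held 3 or more T cell markers, with 1 barcode in both sets. At the same count, 3 barcodes held neutrophil markers, 3 endothelial markers, 1 border macrophage markers and 0 B cell or erythroid markers. The neutrophil genes Cxcr2 and Ly6g, the border macrophage genes Cbr2, Cd209f, Folr2 and Gas6, the B cell gene Ms4a1 and the endothelial genes Cldn5, Cdh5 and Kdr were at 0 UMIs in all 61. The microglial list was the widest, with 3 or more of 12 genes in 31 barcodes and a summed level between 4578 and 6501 CPM (a gene's UMIs divided by all UMIs of the cells and scaled to a fixed total, counts-per-million) over the libraries. Its part in the results was not tested.

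The 61 barcodes were therefore described in 3 sets, drawn after their values were seen and given without a test. A first set of 36 held Ace or Treml4 and fewer than 3 T cell and fewer than 3 dendritic markers, and is called nonclassical-like. A second set of 13 held neither Ace nor Treml4 under the same limits and is called classical-like. The remaining 12 held 3 or more T cell or dendritic markers. In the nonclassical-like set a barcode held between 5 and 24 nonclassical list genes, with a median of 17, and between 6 and 18 classical list genes, with a median of 12. In the classical-like set the medians were 5 and 20, with ranges of 0 to 8 and 11 to 23. All 13 classical-like barcodes held more classical than nonclassical genes, and 29 of 36 nonclassical-like barcodes held more nonclassical than classical genes.

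**Figure D1:**
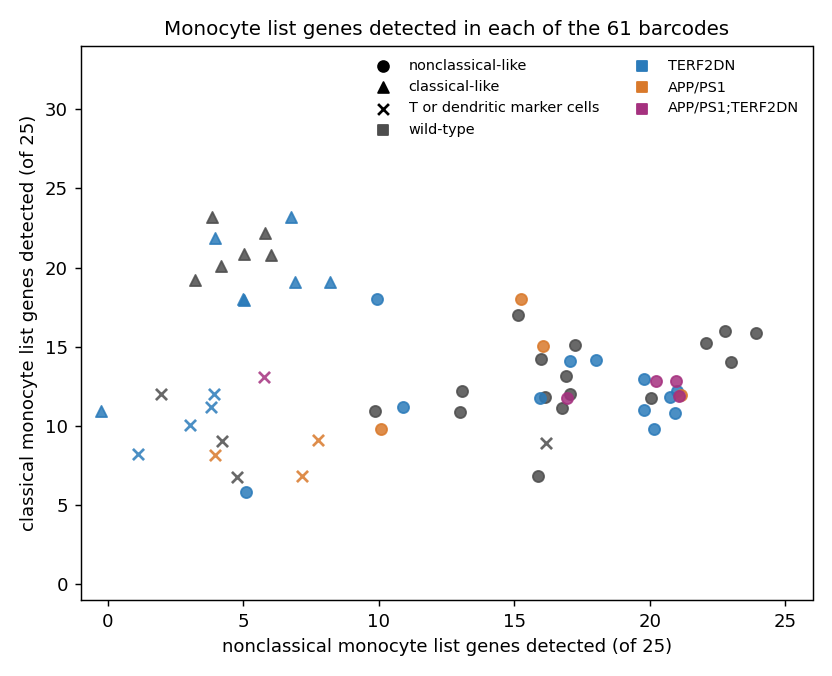
Number of nonclassical list genes (horizontal axis) and classical list genes (vertical axis) detected in each of the 61 gated barcodes, with small random shifts so that points do not cover each other. Shape gives the set and colour the library. The 13 classical-like barcodes sit at 8 or fewer nonclassical genes, and the nonclassical-like barcodes spread from 5 to 24.

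Both Ace and Treml4 were detected in 29 of the 36 nonclassical-like barcodes. Counting all sets, Ace or Treml4 was detected in 38 of 61 monocytes, or 62.3% (49.0 to 74.4%, Clopper-Pearson). With each cell thinned to 1000 UMIs the share was 41.7% of 60 cells, so the share depends on depth. In neutrophils of the same libraries, which should lack both genes, Ace was in 0 of 81 cells, which allows a share of up to 3.70%, and Treml4 in 8 of 81. Median depth was 6634 UMIs in monocytes and 3855 in neutrophils.

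Levels in the nonclassical-like and classical-like sets were set side by side for 5893 genes at 20 CPM or more in one set, of which 17.1% were called higher and 12.1% lower in nonclassical-like barcodes. A call needs a ratio of 2 or more after adding 5 CPM to both levels, with the same direction in both libraries that held both sets.

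The nonclassical-like barcodes were marked by Ear2, an eosinophil-associated ribonuclease (chr14:44102654-44103534, plus strand). It was detected in 33 of 36 of them, at 0 to 16 UMIs with a median of 4, and in 0 of 13 classical-like barcodes, which allows a share of up to 23.1%. By library, Ear2 in nonclassical-like barcodes stood at 840 CPM in wild-type, 987 in TERF2DN, 347 in APP/PS1 and 1410 in the combined genotype, so all 4 libraries were above the pooled upper bound of 40.0 CPM in classical-like barcodes. The pooled 866 CPM was at least 26.6-fold higher than in classical-like barcodes, with the 0 there replaced by a floor of 3 counts over the set. Neutrophils held 29.8 CPM. Fcgr4, the Fc receptor FcγRIV, stood at 389, 453, 252 and 611 CPM in the same order of libraries and at 0 in classical-like barcodes, at least 12.6-fold lower. Cd300e, an activating receptor of monocytes, stood at 338, 291, 31.6 and 705 CPM. The APP/PS1 value rests on 1 UMI, and in classical-like barcodes Cd300e was at 0, at least 9.69-fold lower than the pooled 315 CPM.

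Integrins hold monocytes to the vessel wall, and 4 integrin genes picked for their values were higher in the nonclassical-like barcodes. Of the adhesion list as a whole 8 of 18 were called higher and 2 lower. Itgal, the alpha chain of LFA-1, stood at 737 and 421 CPM in wild-type and TERF2DN nonclassical-like barcodes against 21.5 and 43.9 CPM in classical-like barcodes, a pooled ratio of 19.5 (6.54 to 95.9). Its partner Itgb2 stood at 574 against 119 CPM. Itga4, the alpha chain of VLA-4, was detected in all 36 nonclassical-like barcodes and stood at 788 and 1100 against 236 and 329 CPM, a ratio of 3.15 (2.09 to 4.95). Itgb1, its beta chain, had a ratio of 5.64 (2.87 to 12.6). For each of these 4 integrin genes both wild-type and TERF2DN values of the nonclassical-like set lay above both values of the classical-like set. S1pr5, the sphingosine-1-phosphate receptor that guides the exit of monocytes from marrow, was at 127 CPM against 0, at least 3.91-fold higher.

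Among regulators, Pou2f2, the transcription factor OCT2, stood at 1065 and 954 CPM in wild-type and TERF2DN nonclassical-like barcodes and at 129 and 110 in classical-like barcodes, a ratio of 8.88 (4.87 to 18.0). Nr4a1, required for nonclassical monocytes, stood at 205 and 210 CPM against 0 and 132, a ratio of 3.11 (1.32 to 8.94). Cebpb, a C/EBP factor, was at 664 against 260 CPM, while Irf8 was lower, at 51.8 against 217 CPM. Klf2 and Klf4 were 278 against 163 and 245 against 130 CPM, and the intervals of their ratios included 1. The receptors Cx3cr1 and Csf1r, for fractalkine and for the growth factors CSF1 and IL-34, were at 513 against 239 and 828 against 336 CPM. For Cx3cr1 the order held in wild-type, at 635 against 215 CPM, and TERF2DN had 275 against 263 CPM.

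With all 61 barcodes split by Ace or Treml4 alone, 16% of 5617 genes were called higher and 10.2% lower in those with either. By list, and in the narrower sets, 22 of 25 measured nonclassical genes were called higher and 0 lower, with a median log2 ratio of 4.09, against -0.06 over all genes. Of the classical list 0 of 24 were called higher and 14 lower, with a median of -1.56. Both lists name genes that go with the gate transcripts, so these counts describe the sets and support nothing. Among receptors for chemokines and cytokines 8 of 20 were called higher and 1 lower. Of 8 measured MHC class I genes 2 were called higher, where 17.1% of all genes were, and the light chain B2m stood at 1586 against 607 CPM. Of 9 measured microglial markers 4 were called higher and 1 lower, and their part in these differences was not tested.

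**Figure D2:**
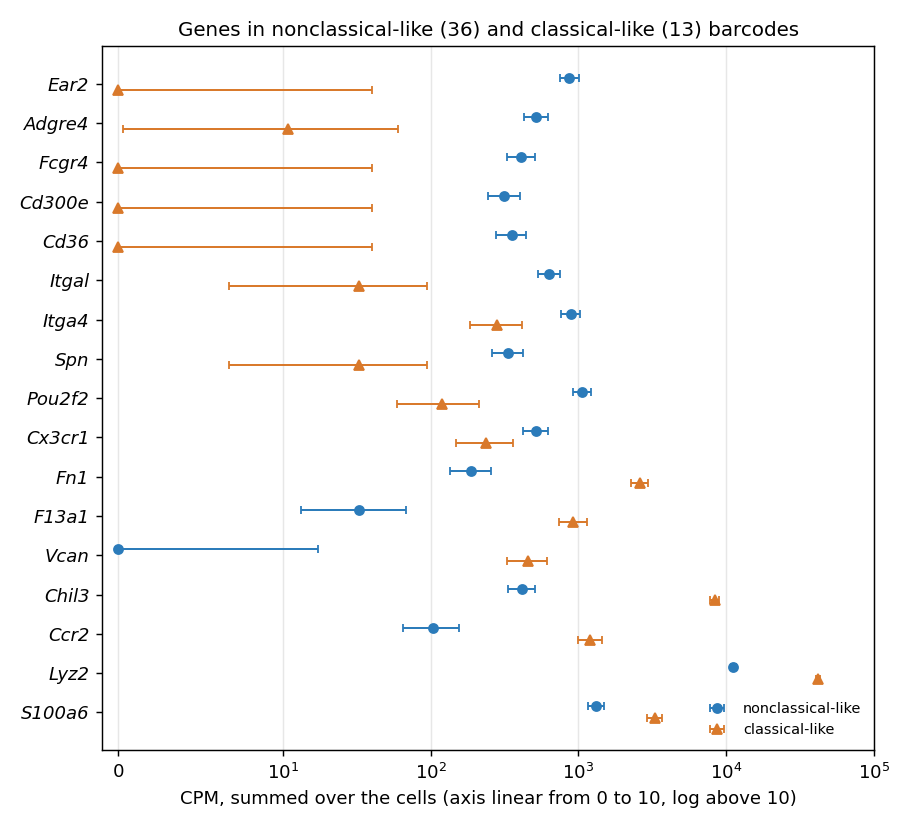
Level of 17 genes in CPM, summed over the 36 nonclassical-like barcodes (circles) and the 13 classical-like barcodes (triangles), with 95% Poisson intervals, on an axis that is linear from 0 to 10 and logarithmic above. The first 10 genes lie to the right in nonclassical-like barcodes and the last 7 to the right in classical-like barcodes.

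The proximal promoters of Ear2 and Adgre4 are shown because these were the nonclassical genes with matches to a C/EBP-type motif among those whose RefSeq promoters were examined singly (Treml4, Ace, Ear2, Cd36, Pou2f2 and Adgre4). Each is the window of 300 bases around the gene's start, most of it upstream (RefSeq, GRCm38.p6), 5′ to 3′ on the plus strand, with the match in capitals. Ear2 lies at chr14:44102404-44102703 and Adgre4, an adhesion receptor of the EMR family, at chr17:55749734-55750033.
Ear2: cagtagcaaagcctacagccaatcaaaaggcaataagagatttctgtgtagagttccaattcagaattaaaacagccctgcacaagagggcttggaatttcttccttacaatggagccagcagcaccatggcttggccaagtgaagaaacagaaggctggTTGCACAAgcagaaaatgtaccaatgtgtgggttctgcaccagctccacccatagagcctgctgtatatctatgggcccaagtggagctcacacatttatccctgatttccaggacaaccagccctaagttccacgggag
Adgre4: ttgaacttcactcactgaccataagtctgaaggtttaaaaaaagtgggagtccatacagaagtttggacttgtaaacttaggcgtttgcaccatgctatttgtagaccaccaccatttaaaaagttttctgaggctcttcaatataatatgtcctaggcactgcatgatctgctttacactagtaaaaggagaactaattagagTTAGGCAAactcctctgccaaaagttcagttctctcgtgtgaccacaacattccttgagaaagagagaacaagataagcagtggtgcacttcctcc
The motif shown was TTGCNNAA, searched on both strands, and it was found in 3 of 19 promoters of 18 matched nonclassical list genes, in Ear2, Adgre4 and Lair1. It was also found in 3 of 20 promoters of 17 matched classical list genes, in Mgst1, Clec4e and Gda, and in 10.8% of all 32851 promoters. Its stricter form TTGCGCAA was in 0 of the 19 nonclassical and 0 of the 20 classical promoters, and in 0.183% of all promoters. The sequence AAAGGTCA, bound by NR4A factors and also searched on both strands, was in 0 of the 19 nonclassical promoters and in 1.51% of all promoters. These counts describe the letters in the windows only. Adgre4 itself stood at 553, 534, 379 and 517 CPM in nonclassical-like barcodes and at 0 and 21.9 CPM in wild-type and TERF2DN classical-like barcodes.

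Fn1, F13a1 and Vcan were among the genes with the lowest ratios of nonclassical-like to classical-like barcodes. Fn1, fibronectin (chr1:71585520-71653200, minus strand), was detected in all 13, at 1 to 66 UMIs with a median of 14, and stood at 2361 CPM in wild-type and 2828 in TERF2DN. In nonclassical-like barcodes Fn1 stood at 10.2, 582, 63.1 and 47.0 CPM, and 36 of the 40 UMIs came from 1 TERF2DN barcode with 1 Ace UMI, 282 Lyz2 UMIs and more classical than nonclassical list genes. F13a1, the A subunit of clotting factor XIII, stood at 859 and 987 CPM against 20.5 and 80.9, a ratio of nonclassical-like to classical-like of 0.0357 (0.0139 to 0.0769). Vcan, the proteoglycan versican, gave 42 UMIs in 8 classical-like barcodes and 0 UMIs in 36 nonclassical-like barcodes, which was at least 32.3-fold lower.

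Lyz2, lysozyme, was detected in all barcodes of both sets. It ranged from 15 to 466 UMIs with a median of 310 in classical-like barcodes and from 7 to 282 with a median of 51.5 in nonclassical-like barcodes. The pooled levels were 41844 and 11178 CPM, a ratio of 0.267 (0.254 to 0.281). Ccr2 stood at 1204 CPM in classical-like and 103 CPM in nonclassical-like barcodes, Chil3 at 8362 and 414 CPM, and Ly6c2 at 607 and 47.1 CPM. These 3 are gate genes. A barcode with neither Ace nor Treml4 could enter only through 3 of the other 5 gate genes, so the gate and the split fix much of these values, which are a description. Other genes that were higher in classical-like barcodes were Lgals3 (galectin-3), S100a6, Vim (vimentin), Npc2 (a lysosomal cholesterol carrier), the collagenase Mmp8 and the endotoxin co-receptor Cd14. Hp, haptoglobin, had no common order in the libraries, with 225 against 1653 CPM in wild-type and 809 against 526 CPM in TERF2DN. The proliferation marker Mki67 gave 6 UMIs in 3 of 13 classical-like barcodes and 0 in 36 nonclassical-like barcodes. Of the 6, 3 came from 1 TERF2DN barcode with 1712 UMIs in all, 0 of Ccr2 and 15 of Lyz2. This barcode held 6 of 10 cell cycle list genes, and its part in these values was not tested. Of 6 measured cell cycle genes 4 were called lower in nonclassical-like barcodes, among them Hmgb2 at 249 against 759 CPM.

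The 12 remaining barcodes were a mixture. In the APP/PS1 library 2 of them held 7 and 9 of 10 T cell markers, with 12 and 10 UMIs of Cd3d, a chain of the T cell receptor complex, 76 and 87 UMIs of the chemokine Ccl5, and 0 UMIs of Lyz2 in both. Another APP/PS1 barcode held 10 of 15 dendritic markers, with 13 UMIs of Siglech and 24 of Ly6c2. Of the other 9, 7 held between 78 and 284 UMIs of Cd74, the invariant chain of MHC class II. Over the 12, Cd74 ran from 0 to 284 UMIs with a median of 112, against a median of 2 in nonclassical-like and 0 in classical-like barcodes. Lyz2 had a median of 1.5 UMIs in them and was at 0 in 5. A wild-type barcode with 3 dendritic markers held 16 nonclassical and 9 classical list genes, 1 Ace UMI and 3 Treml4 UMIs. Its dendritic markers included 1 UMI of Siglech, a gene also on the microglial list. A TERF2DN barcode held 4 of 10 border macrophage markers and 515 UMIs of Apoe. None of the 61 was among the barcodes with the highest doublet scores, and no monocyte barcode was shared between libraries.

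**Figure D3:**
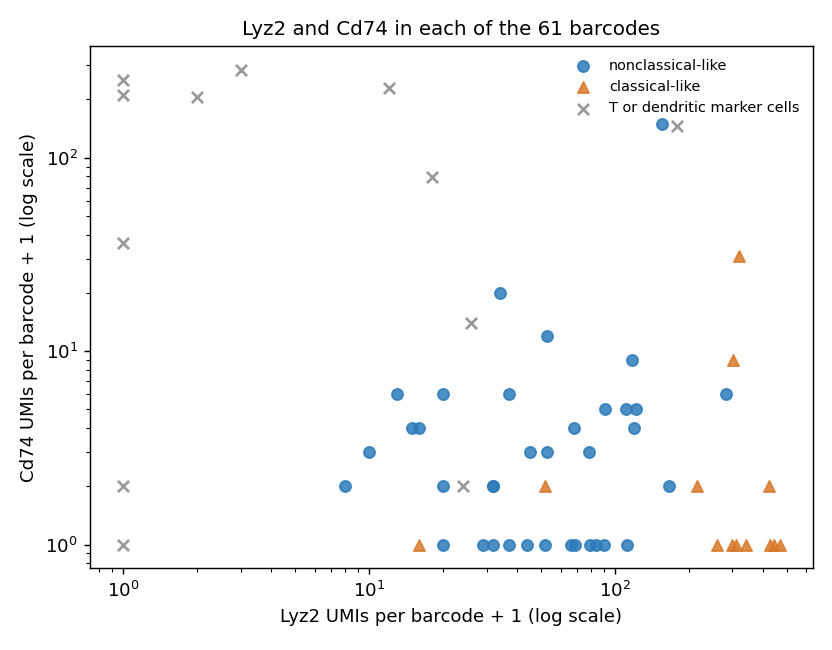
UMIs per barcode of Lyz2 (horizontal axis) and Cd74 (vertical axis), each plus 1 on a log scale, for all 61 gated barcodes, with shape and colour giving the set. Classical-like barcodes lie at high Lyz2, 11 of 13 at 200 UMIs or more, while 9 of the 12 barcodes with T cell or dendritic markers have 10 or more Cd74 UMIs.

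The share of monocytes among kept barcodes was lower in both libraries with APP/PS1. The gate took 26 of 7635 barcodes in wild-type (0.341%, 0.223 to 0.499%) and 23 of 5189 in TERF2DN (0.443%, 0.281 to 0.664%). It took 7 of 5341 in APP/PS1 (0.131%, 0.0527 to 0.270%) and 5 of 5174 in APP/PS1;TERF2DN (0.0966%, 0.0314 to 0.225%). Pooled, the libraries without and with APP/PS1 had 0.382% (0.283 to 0.505%) and 0.114% (0.0590 to 0.199%), and those intervals do not overlap, while those of wild-type and APP/PS1 do. The spread between mice was not measured, and a share of selected cells also moves with the number of microglia taken.

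Classical-like barcodes were found in the wild-type library, with 6, and the TERF2DN library, with 7, and in neither library with APP/PS1. A count of 0 allows up to 0.0562% and 0.0580% of kept barcodes there, and the intervals of wild-type (0.0786%, 0.0288 to 0.171%) and TERF2DN (0.135%, 0.0543 to 0.278%) reach below those limits. Pooled, they were 13 of 12824 kept barcodes (0.101%, 0.0540 to 0.173%) without APP/PS1 and 0 of 10515 with it, which allows a share of up to 0.0285%. Nonclassical-like barcodes numbered 16, 12, 4 and 4, or 0.210, 0.231, 0.0749 and 0.0773% of kept barcodes. The barcodes with T cell or dendritic markers numbered 4, 4, 3 and 1. Genotype and library cannot be told apart in these counts, and neutrophils numbered 35, 21, 9 and 16 in the same order.

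**Figure D4:**
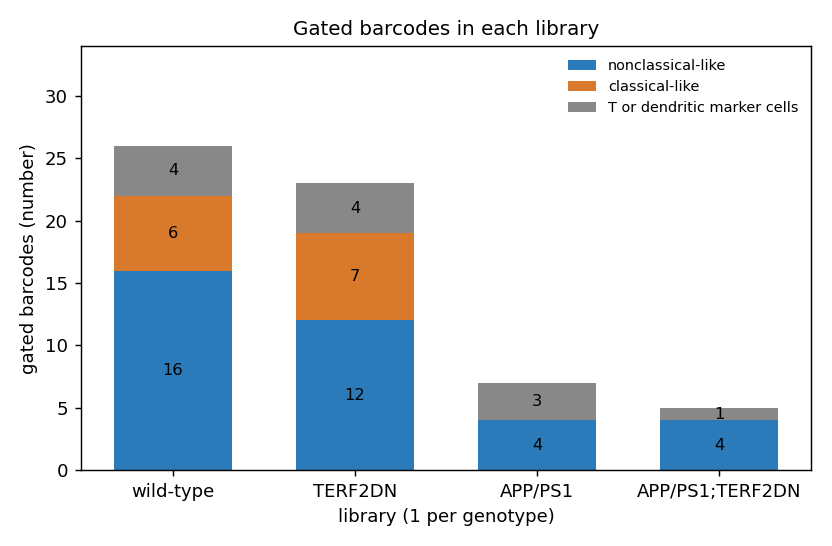
Number of gated barcodes in each library, split into nonclassical-like, classical-like and those with 3 or more T cell or dendritic markers. The wild-type and TERF2DN bars reach 26 and 23 barcodes, and the APP/PS1 and APP/PS1;TERF2DN bars reach 7 and 5, with no classical-like barcode.

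The comparisons with microglia, border macrophages and neutrophils used all 61 gated barcodes as monocytes. The 12 with T cell or dendritic markers gave 125432 of their 430096 UMIs, and their part in these levels was not tested. Against 20133 microglia of the same libraries, the genes named for the highest ratios in monocytes included S100a6, a calcium-binding protein, Napsa, Hp and Itga4. All 12 microglial markers were called lower, and of 17 measured adhesion genes 8 were called higher and 2 lower. A call here needs the same direction in all 4 libraries. S100a6 stood at 1714 against 3.37 CPM, Napsa, an aspartic protease, at 584 against 0.669 CPM and Hp at 442 against 0.100 CPM. Itga4 stood at 558 against 1.68 CPM, and Itgb7, which pairs with it, at 116 against 0.362 CPM. The membrane scaffold Ahnak, the interferon-induced Ifitm6, the adhesion receptor Adgre5 and Emb (embigin) were each between 326 and 498 CPM in monocytes and at or below 1.11 CPM in microglia. Of 6332 genes, 8.94% were called higher and 17.2% lower, and 20 of 24 classical and 18 of 25 nonclassical list genes were called higher.

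Several transcription factor genes named here differed between monocytes and microglia, and of these Nr4a1 and Klf2 are on the nonclassical list. Nr4a1 stood at 116 against 0.569 CPM, Klf4 at 172 against 2.74 CPM and Klf2 at 200 against 4.16 CPM. Sall1, the microglial identity factor, which also helped to choose the microglia, gave 1 UMI in all monocytes against 176 CPM in microglia. Maf, a macrophage factor, was lower at 6.98 against 567 CPM. Spi1, or PU.1, which all myeloid cells use, was 423 against 302 CPM and was not called. Of 17 transcription factors on the list 2 were called higher and 7 lower, where 8.94% and 17.2% of all genes were. The list's median log2 ratio was -0.10 against -0.15 over all genes.

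Genes of uptake and digestion were lower in monocytes. Of 17 phagocytic receptor genes 3 were called higher and 10 lower, and of 12 lysosomal and amyloid-degrading genes 0 were called higher and 6 lower. Trem2 stood at 114 against 3758 CPM, the apoptotic cell receptor Mertk at 6.98 against 255 CPM, and the proteases Ctsd and Ctsl at 286 against 6013 and 88.4 against 2343 CPM. The receptors higher in monocytes included Fcgr4, at 202 against 12.7 CPM, while Fcgr3 and Fcgr1 were lower, with ratios of 0.245 (0.196 to 0.301) and 0.228 (0.141 to 0.349). The scavenger receptor Cd36 was at 181 against 1.13 CPM. The chemokine receptor Cx3cr1 was at 377 against 2645 CPM and Csf1r at 539 against 1827 CPM. Immediate-early genes were higher for 9 of 13, for example Fos, at 86.0 against 3.79 CPM, and Dusp1, at 58.1 against 3.82 CPM. The cytokine Il1b was 112 CPM in monocytes, 6.68 CPM in microglia and 484 CPM in neutrophils.

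Against 667 border macrophages, which line the vessels and meninges, all 10 measured marker genes of the latter were called lower in monocytes. The transcripts that chose the border macrophages included Cbr2, Ms4a7, Lyve1, Cd163 and Stab1. These genes are also on the marker list, so their levels are a description and the count does not check the label. The adhesion molecule Vcam1 gave 0 UMIs in 61 monocytes against 555 CPM, at least 79.6-fold lower, and Gas6, a ligand of MERTK, was at least 47.9-fold lower. The chemokines Ccl8 and Ccl12 gave 1 UMI each in monocytes, with ratios of 0.00541 (0.000137 to 0.0302) and 0.00581 (0.000147 to 0.0324). Hp was at least 474-fold and Cd300e at least 172-fold higher in monocytes, and the hyaluronan receptor Cd44 stood at 263 against 4.03 CPM. Lyz2 (15090 against 10435 CPM) and Cd36 (181 against 161 CPM) were not called. Of 6106 genes 9.02% were called higher and 14.4% lower, against 20 of 25 nonclassical list genes higher and 0 lower.

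Neutrophils, another blood-derived cell type, were chosen by 20 or more UMIs of S100a8 plus S100a9. They also held 1 or more of Retnlg, Cxcr2, Csf3r, Camp, Ngp, Ltf, Ly6g, Mmp8 and Lcn2. Ngp, Retnlg and Camp, all granule or neutrophil secretory products, each gave 1 UMI in monocytes. In the 81 neutrophils they stood at 20416, 17860 and 17074 CPM. The chemokine receptor Cxcr2 was at 0 in monocytes, at least 80.5-fold lower. All of these genes helped to choose the neutrophils, so their levels are a description. Monocytes were higher in Csf1r, with a ratio of 3.94 (3.0004 to 5.23), in Klf4, with 17.3 (7.11 to 55.0), and in the C-type lectin Clec4a1, with 52.2 (14.0 to 437). The classical list was called higher for 6 of 25 genes and lower for 10, whereas the nonclassical list was higher for 20 of 25 and lower for 1. Over 5512 genes 21.2% were called higher and 8.98% lower. H2-Aa, a chain of MHC class II, stood at 1221 against 5.95 CPM, but its UMIs sat in 15 of 61 monocytes, and classical-like and nonclassical-like barcodes held 2 and 68 of the 525.

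Within the nonclassical-like set, the pooled levels of leading nonclassical genes with and without APP/PS1 could not be told apart. For Ear2 the 2 libraries with APP/PS1 differed from each other. Between genotypes a call needs only the pooled ratio of 2 or more. In the 8 nonclassical-like barcodes of the libraries with APP/PS1 against the 28 of the others, Ear2 stood at 774 against 897 CPM, a ratio of 0.863 (0.595 to 1.23). The APP/PS1 value of 347 CPM lay below and the combined genotype's 1410 CPM above both other libraries. Without APP/PS1;TERF2DN the ratio was 0.387 (0.189 to 0.714), and without APP/PS1 it was 1.57 (1.02 to 2.34), so the pooled value averages libraries on opposite sides. Fcgr4 stood at 397 against 414 CPM, a ratio of 0.958 (0.557 to 1.59). It too lay lowest in APP/PS1 (252 CPM) and highest in the combined genotype (611 CPM). Its ratios were 0.610 (0.253 to 1.27) without APP/PS1;TERF2DN and 1.48 (0.747 to 2.70) without APP/PS1, and both intervals include 1. In APP/PS1, 1 barcode gave 9784 of the set's 31684 UMIs. It held 1 Ace, 0 Treml4, 0 Ear2, 1 Fcgr4 and 17 Ccr2 UMIs, and its part in the APP/PS1 values was not tested. The ratio was 1.15 (0.841 to 1.54) for Pou2f2, 0.914 (0.637 to 1.29) for Itga4 and 0.913 (0.401 to 1.90) for Nr4a1. Each of these pooled intervals includes 1, and smaller differences than their bounds were not detectable at this depth. Of 25 nonclassical list genes 1 was called higher and 2 lower, where 20.8% and 16.9% of 5262 genes were called, and the list's median log2 ratio was 0.01 against 0.10 over all genes.

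A stricter call, in which the interval also leaves out 1 and both libraries with APP/PS1 lie beyond both others, took 2.55% of those genes as higher and 0.798% as lower. The genes named from it were chosen after their values were seen. C1qb, a chain of complement C1q, in nonclassical-like barcodes stood at 297 CPM in wild-type, 194 in TERF2DN, 1610 in APP/PS1 and 423 in the combined genotype, a pooled ratio of 4.41 (2.91 to 6.72). C1qc, another chain of it, had a ratio of 4.30 (2.59 to 7.24). Without the APP/PS1 library the ratios were 1.65 (0.703 to 3.44) and 1.87 (0.691 to 4.39), so both rest on that library. The part of free RNA in them was not tested, with C1qb at 389 CPM in neutrophils. Cebpb stood at 543, 501, 884 and 1363 CPM in the same order, a ratio of 2.04 (1.43 to 2.89), and was detected in all 8 nonclassical-like barcodes with APP/PS1. Flna, the actin cross-linker filamin A, was lower, at 1055, 728, 379 and 423 CPM, a ratio of 0.427 (0.257 to 0.678). These values rest on 21 to 60 UMIs in the libraries with APP/PS1.

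Taken over all gated barcodes, the same comparison called 18.2% of 5640 genes higher and 11.1% lower in the libraries with APP/PS1, and 7.27% and 1.88% when the counting interval also had to leave out 1. Genes simulated without a difference were also often called at 2-fold on the pooled ratio alone, here and in the split by Ace or Treml4. These shares are therefore not read as a measure of change. All 8 measured T cell markers were called higher, and they came from the 2 barcodes with T cell markers. Of 24 classical list genes 1 was called higher and 9 lower, where no classical-like barcode was present: Fn1 stood at 68.7 against 844 CPM, F13a1 and Vcan at 0, and Lyz2 at 5283 against 18132 CPM. Among nonclassical-like barcodes alone Lyz2 was 9686 against 11674 CPM, with the lowest level, 3478 CPM, in APP/PS1;TERF2DN. MHC class II went in opposite directions in the wider and the narrower set. Cd74 had a ratio of 0.443 (0.381 to 0.512) over all monocytes and of 5.84 (4.46 to 7.71) over nonclassical-like barcodes, where 149 of 161 UMIs came from 1 APP/PS1 barcode with 63 UMIs of H2-Aa. Without the APP/PS1 library the latter ratio was 0.542 (0.193 to 1.23). By library Cd74 stood at 420, 679, 4892 and 282 CPM in nonclassical-like barcodes.

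TERF2DN against wild-type monocytes, with 23 and 26 barcodes, called 12.2% of 5850 genes higher and 11.4% lower, and 1.86% and 1.54% when the counting interval also had to leave out 1. Lyz2 stood at 17932 against 18299 CPM, a ratio of 0.980 (0.931 to 1.03), and S100a4 at 1879 against 2008 CPM, a ratio of 0.936 (0.798 to 1.097). Cd36 was called higher in TERF2DN, at 247 against 117 CPM, a ratio of 2.11 (1.20 to 3.79), and Pou2f2 was at 435 against 660 CPM, a ratio of 0.659 (0.479 to 0.899). The mix of sets differed, with nonclassical-like barcodes holding 61834 of 149513 UMIs in TERF2DN and 97667 of 178750 in wild-type. Pou2f2 levels within that set are given above for both libraries, and the part of the mix in these ratios was not tested. Of the nonclassical list 1 gene was called higher and 4 lower, and of the classical list 1 and 2 of 25. Border macrophage markers were called higher for 3 of 4 measured, and 1 barcode with 4 such markers lies in that library. Terf2, the gene behind the TERF2DN transgene, gave 1, 0, 1 and 0 UMIs in monocytes of those libraries, in the order of genotypes used here, so it could not check the labels in these cells.

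The disease-associated genes of microglia were compared in monocytes of the same libraries. Apoe, the lipid carrier apolipoprotein E (chr7:19696109-19699188, minus strand), was detected in all 36 nonclassical-like and all 13 classical-like barcodes, with medians of 41.5 and 72 UMIs. In nonclassical-like barcodes it stood at 7526 CPM in wild-type, 8523 in TERF2DN, 10510 in APP/PS1 and 5216 in the combined genotype, so the libraries with and without APP/PS1 overlapped, and the pooled ratio was 1.06 (0.949 to 1.18). In microglia Apoe stood at 2803, 3184, 27836 and 23655 CPM, a ratio of 8.73 (8.68 to 8.77) with APP/PS1. In border macrophages it stood at 73848, 68911, 65822 and 63917 CPM, a ratio of 0.900 (0.892 to 0.908). In neutrophils Apoe stood at 245, 248, 2269 and 4201 CPM, a ratio of 15.4 (12.2 to 19.7). Pooled nonclassical-like barcodes thus stood above neutrophils for Apoe in all 4 libraries. In APP/PS1;TERF2DN the margin was small, 5216 against 4201 CPM, and rested on 4 barcodes with 9, 45, 37 and 20 UMIs. The gated monocytes of APP/PS1;TERF2DN taken whole, at 2999 CPM, were below the neutrophils of that library. Apoe in neutrophils was higher in both libraries with APP/PS1, as in microglia, and the part of free RNA in the monocyte values was not tested.

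Cst7, the inhibitor cystatin F, gave 0, 2, 2 and 1 UMIs in all monocytes of the 4 libraries, and its level in microglia was 15.1, 26.1, 1320 and 989 CPM. Spp1, osteopontin, gave 1, 2, 2 and 0 UMIs. Trem2 stood at 101, 127, 125 and 105 CPM in monocytes, between 84.5 and 441 CPM in neutrophils, and at 2435, 2346, 5527 and 4493 CPM in microglia. The Trem2 level in monocytes was below that of neutrophils in both libraries with APP/PS1, where it rested on 8 and 4 UMIs, and the part of free RNA in it was not tested. Over all monocytes 10 of 15 disease-associated genes were called lower than in microglia, against 17.2% of all genes, and 1 higher, against 8.94%, Lgals3 at 1174 against 105 CPM.

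**Figure D5:**
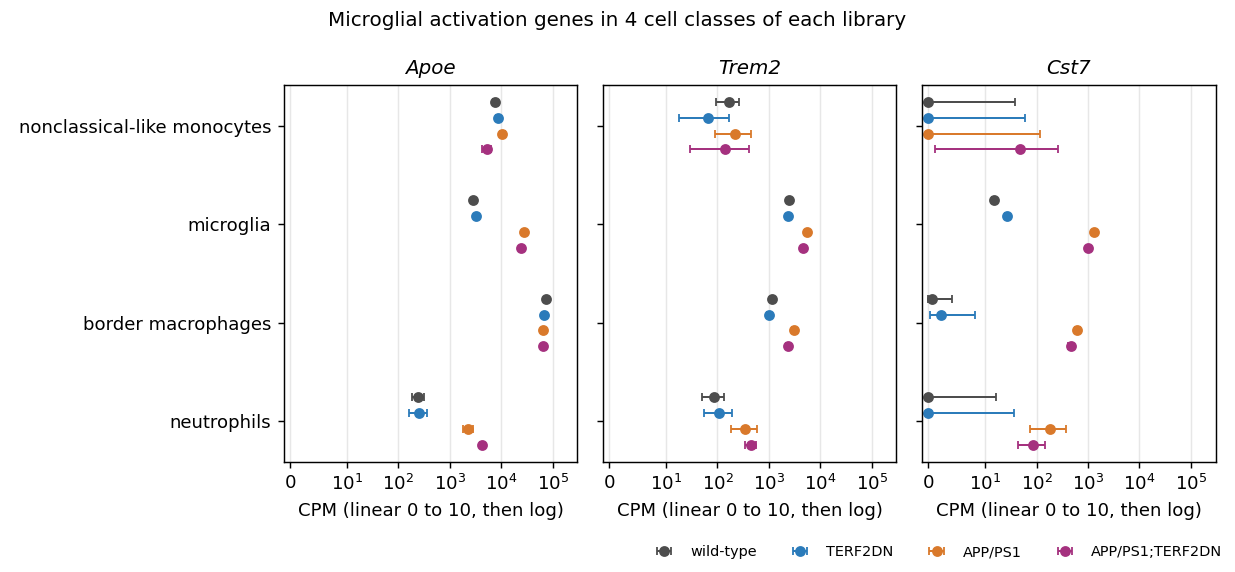
Level of Apoe, Trem2 and Cst7 in CPM in nonclassical-like monocytes, microglia, border macrophages and neutrophils of each library, with 95% Poisson intervals, on an axis that is linear from 0 to 10 and logarithmic above. Apoe in microglia lies at 2803 and 3184 CPM without APP/PS1 and at 27836 and 23655 CPM with it, and in nonclassical-like monocytes all 4 libraries lie between 5216 and 10510 CPM.

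Depth set the limits of these comparisons. The libraries held between 30702262 and 46255914 UMIs in 5406 to 7950 barcodes. The monocytes held 178750, 149513, 63823 and 38010 UMIs in the same order of libraries, with between 736 and 16731 per barcode. A gene at 20 CPM had under 1 expected UMI in all monocytes of the APP/PS1;TERF2DN library, so differences there were detectable only for abundant genes.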

How the data were processed

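The deposited values are raw UMI counts by gene and barcode. Cell Ranger 6.1.2 made them per the file headers, on mm10 per the submitters' processing notes. The 4 libraries, 1 for each genotype, list 32285 genes. Without replicates no test was run, and the 95% intervals (Poisson, Clopper-Pearson, conditional binomial) cover counting error only.

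UMIs of all cells in a class were added up and scaled to CPM. A gene at 20 CPM or more on one side was called at a ratio of 2 after adding 5 CPM, which understates differences of low genes. Comparisons of cell types also needed the same direction in every library with 5 or more monocytes. For folds against 0, 3 counts over the group stood in. Doublets were kept; Scrublet (scanpy 1.11.5), run as an alternative, removed 1123 barcodes and none of the monocytes. The calls were tested on simulated counts, where genes without a difference were often called in comparisons within monocytes and seldom against microglia. The simulated calls used the pooled ratio alone. Calls against microglia and in the split by Ace or Treml4 also needed a common direction, which the simulation did not test. The tools were Python 3.11.15, numpy 2.4.6, scipy 1.17.1 and pandas 2.3.3, with plots by matplotlib 3.10.9.

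The members and the 29 gene lists (383 symbols, 1 unmatched) were chosen with earlier results of these data known. Genes were named from the gate, from those lists, from the highest and lowest ratios of each comparison, and from a fixed set that includes Apoe, Cst7, Trem2 and Spp1. Gene positions are from GENCODE M21, which held all 307 genes named by this rule, and promoters from RefSeq.

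The alternatives were another gate (4 of 7 genes, or none of P2ry12, Tmem119, Mrc1 and Pf4), 1000 genes with 5% mitochondrial UMIs, no predicted doublets, no cells with 2 or more natural killer, T, B or dendritic markers, mean CPM per cell, 1 or 20 CPM added, no CPM minimum, thinning to 1000 UMIs, and each library left out. The 3 sets of barcodes, and the alternatives built on them, were added after seeing the data. Some genes are not reported here.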

Additional observations from a re-analysis of the deposited data

How the results depend on the processing

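Among the counts and shares that answer a comparison, 174 alternative values stayed near the reported one and 37 moved. Of 484 alternative values of gene ratios 144 moved and 9 reversed. The genotype counts moved most, and the cause was not tested.

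For libraries with APP/PS1 against those without, the 1026 genes called higher and 626 lower became 1764 and 1136 with 4 of 7 gate genes, 1821 and 1126 without cells holding 2 or more other-cell markers, 555 and 360 with 20 CPM added, and 2071 and 1743 with no CPM minimum. With none of P2ry12, Tmem119, Mrc1 and Pf4 allowed, 1601 were higher. Leaving out 1 library gave 1107 to 1656 higher and 760 to 1182 lower, with the highest values without APP/PS1. For TERF2DN against wild-type, 713 higher and 665 lower became 1132 higher with 4 of 7 gate genes, 1399 lower in nonclassical-like cells, 313 and 328 with 20 CPM added, and 1660 and 1978 with no minimum. Against microglia, 1086 lower became 705 with 20 CPM added and 1853 with no minimum, and against border macrophages 879 lower became 1430 with no minimum. For monocytes with against without Ace or Treml4, 901 higher and 574 lower became 538 and 330 with 20 CPM added, and the lower count ran from 640 to 1039 with 1 library left out (1039 without wild-type, 951 without TERF2DN).

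The wild-type share of monocytes became 0.210% with none of the 4 negative genes allowed. The share with Ace or Treml4 was 41.7% after thinning and 57.1 to 68.4% with 1 library left out. Apoe in wild-type, in TERF2DN, in APP/PS1 and in the combined genotype was 8781, 9166, 11419 and 5068 CPM without cells holding 2 or more other-cell markers, and 7526, 8523, 10510 and 5216 CPM in nonclassical-like cells. As a mean over cells it was 8115, 10878 and 4200 CPM in all but APP/PS1.

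The 12 cells with T cell or dendritic markers held 1454 of 1739 Cd74 UMIs, and MHC class II reversed without them. Between monocytes with and without Ace or Treml4, the log2 ratio of Cd74 became 1.43 without cells holding 2 or more other-cell markers and 1.36 without those 12, and that of H2-Aa became 3.72 and 3.61. With APP/PS1 against without, Cd74 went from -1.17 to 0.67 with 4 of 7 gate genes, to 2.98 and 2.61 in those other settings, and to 2.53 in nonclassical-like cells, where the plain ratio was 0.542 to 9.40 with 1 library left out (0.542 without APP/PS1), and Chil3 went from -2.29 to 2.03. No paired analysis was possible because each genotype has 1 library.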
